A study of Mus musculus with 6 samples.

Results

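The genes described here are 41 genes of DNA damage signalling and repair, taken by symbol from a list of checkpoint, break, excision, mismatch and crosslink repair genes that leaves out direct targets of p53. All 41 symbols were found among the 51810 genes of the deposited series table. The samples were 6 mRNA sequencing libraries of mouse thymus cells that the labels call mTEChi, the mature medullary thymic epithelial cells with high levels of class II MHC. The WT group held 3 libraries from mice labelled NoCre with the genotype P53-WT, and the cKO group held 3 libraries from mice labelled P53-cKO, in which Trp53, the gene of the transcription factor p53, was deleted conditionally. Both groups came from thymi of mice aged 4 to 5 weeks, and 75000 cells per sample were sorted into lysis buffer. No label names the Cre driver, the strain or the sex, or ties a library to an animal of its own. Spread between libraries, on which the p-values rest, may therefore be technical.

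When DNA breaks, the MRE11-RAD50-NBN complex activates the kinase ATM, while single-stranded DNA at stalled replication forks activates ATR. These kinases and their relays CHEK2 and CHEK1 phosphorylate p53 and stabilise it, which places these 4 upstream of p53. A break is then marked on chromatin by MDC1, RNF8, RNF168 and TP53BP1 and closed by end joining or, with a sister chromatid as template, by homologous recombination, while damaged bases, mismatches, bulky lesions and crosslinks have pathways of their own. Medullary thymic epithelial cells transcribe a wide range of tissue-restricted genes under the regulator AIRE, which is known to act together with topoisomerase II, DNA-PK, the Ku proteins and PARP1, so breaks and their repair have been of interest in these cells.

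The libraries held 45457892 to 50128045 counts. Trp53 was counted 5351, 4837 and 5314 times in the WT libraries, numbered 1 to 3, and 386, 361 and 369 times in the cKO libraries, which fits the labels of all 6. Its fitted log2 fold change (cKO over WT throughout) was −3.81 (SE 0.0999, adjusted p = 5.76e-10, edgeR), 13.98-fold lower in cKO. All 15 markers of mature medullary epithelium were detected in every library, with a summed TPM of 40950 to 43890 in WT and 41790 to 43090 in cKO, among them Aire at 704.1 to 861.2 TPM in WT and 495.2 to 705.3 TPM in cKO. TPM is the deposited count per kilobase of exon rescaled to a fixed sum. Cd74, H2-Aa, H2-Ab1 and H2-Eb1 made up most of the sum. In counts scaled between libraries, the groups did not overlap for Aire and Fezf2, lower in cKO, and Tnfrsf11a, higher, as for 14.4% of all genes tested. Their log2 fold changes were −0.32 (SE 0.123), −0.165 (SE 0.0799) and 0.155 (SE 0.0712), with edgeR adjusted p-values of 0.516, 0.612 and 0.586. Markers of other cells were also detected, none at 0 in any library: the summed TPM of 14 thymocyte genes was 74.3 to 134.8 in WT and 79.2 to 124.4 in cKO, that of 6 B cell genes 52.2 to 62.8 and 52.3 to 57.3, that of 8 myeloid genes 823.2 to 1072 and 1012 to 1475, and that of 8 fibroblast and endothelial genes 53.3 to 56.7 and 49.7 to 56.2. By library number, the thymocyte sum was 105.7, 134.8 and 74.3 TPM in WT and 83.8, 124.4 and 79.2 TPM in cKO. It was highest in library 2 and lowest in library 3 of both groups. Lyz2 made up most of the myeloid sum. The 6 red cell genes summed to 185 to 203.1 TPM in WT and 117.7 to 172.8 TPM in cKO, without overlap, and the part of these other cells in the results was not tested.

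None of the 41 genes passed the test between cKO and WT. All 41 were high enough to be tested, and edgeR's quasi-likelihood test called 0 of them at an adjusted p under 0.05, where 0.0596% of the 28543 genes tested were called. DESeq2, which called 0.783% of genes, and limma-voom, which called 0.0175%, also called 0 of the 41. At an unadjusted p under 0.05 there was 1 of the 41, Ung, lower in cKO, against 8.51% of all genes tested (4.28% higher and 4.23% lower). The values of the groups did not overlap for 3 of the 41 (Atm, higher in cKO, and Brca1 and Ung, lower), against 14.4% of all genes tested (7.14% higher and 7.28% lower). Fitted log2 fold changes were above 0 for 21 genes and below 0 for 20, with a median of 0.000 beside −0.005 over all genes tested. Scaling by library totals or by the upper quartile gave 15 above 0 and 26 below.

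The intervals give the size of change that these libraries leave room for. The 95% interval of the fold change lay within 1.2-fold of no change in either direction for 6 of the 41 genes (Atr, Rad50, Trp53bp1, Lig3, Ercc2 and Ercc3), within 1.5-fold for 34 and within 2-fold for 41. The genes whose interval reached past 1.5-fold were Xrcc3, Rad52, Xrcc5, Nhej1, Ung, Xpa and Ercc1. Standard errors ran from 0.0764 for Trp53bp1, which had the most counts (up to 7689 in a library), to 0.239 for Xrcc5, with a median of 0.131. The median size of the log2 fold change, signs ignored, was 0.087 for the 41 genes, 0.110 for the 16626 genes tested within their range of mean expression, and 0.150 for all genes tested.

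**Figure D1:**
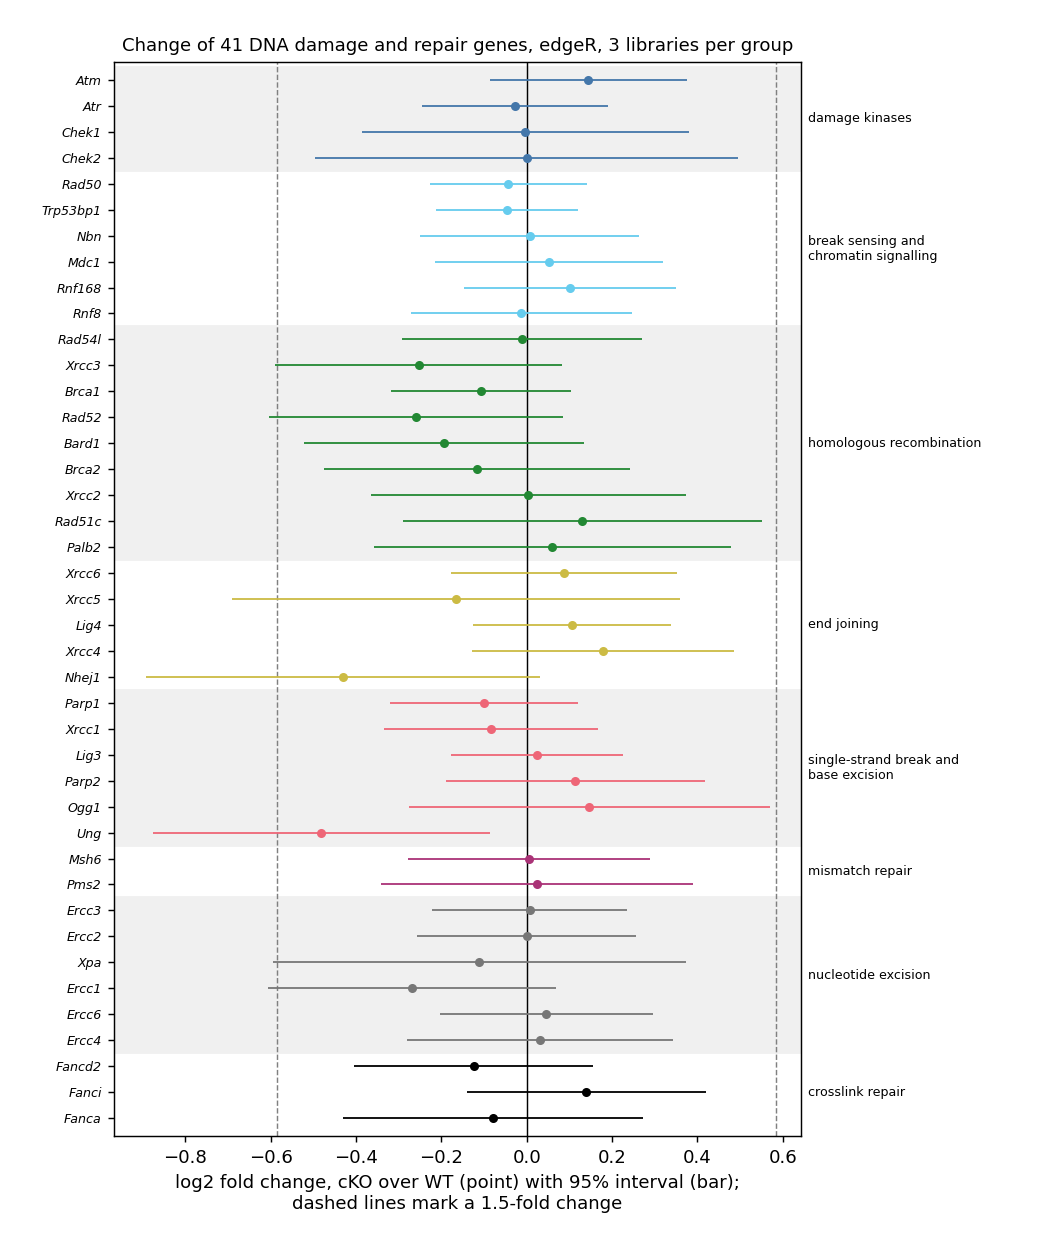
Fitted log2 fold change of each of the 41 genes, cKO over WT, grouped by role (point) with its 95% interval (bar), from edgeR on 3 libraries per group. The dashed lines mark 1.5-fold, every interval except that of Ung crosses 0, and the lowest point is Ung at −0.48.

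The promoters of the genes with the smallest unadjusted p-values, Ung, Nhej1, Ercc1 and Rad52, are shown because these genes came nearest to passing the test. The 250 bases before the RefSeq transcription start (build GRCm38.p6) are written 5′ to 3′ on the strand of the gene, and capitals mark matches on either strand to TTCCCGC (an E2F motif) or GGGCGG (the GC box, a motif searched after the others had been seen). The Ercc1 window lies inside the counted gene, past its outermost start at 19344778. The end of the Ung window, with the GC box nearest the start, also lies inside the counted gene, which begins at 114130386. Rad50, the most abundant of the 41, had no entry.
Ung (chr5:114130185-114130434, + strand): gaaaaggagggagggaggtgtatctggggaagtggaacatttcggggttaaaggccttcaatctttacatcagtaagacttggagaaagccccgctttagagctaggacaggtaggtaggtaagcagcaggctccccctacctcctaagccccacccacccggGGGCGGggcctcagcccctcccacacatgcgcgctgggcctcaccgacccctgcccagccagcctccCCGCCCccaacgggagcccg
Nhej1 (chr1:75125227-75125476, - strand): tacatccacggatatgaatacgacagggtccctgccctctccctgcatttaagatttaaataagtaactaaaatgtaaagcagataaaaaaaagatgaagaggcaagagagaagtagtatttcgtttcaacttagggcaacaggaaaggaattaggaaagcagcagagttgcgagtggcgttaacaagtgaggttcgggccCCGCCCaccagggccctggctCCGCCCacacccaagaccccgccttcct
Ercc1 (chr7:19344821-19345070, + strand): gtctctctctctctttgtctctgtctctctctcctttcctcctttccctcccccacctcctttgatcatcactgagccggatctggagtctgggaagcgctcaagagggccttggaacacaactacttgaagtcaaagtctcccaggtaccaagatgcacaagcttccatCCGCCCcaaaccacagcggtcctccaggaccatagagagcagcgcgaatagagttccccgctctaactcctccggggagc
Rad52 (chr6:119902448-119902697, + strand): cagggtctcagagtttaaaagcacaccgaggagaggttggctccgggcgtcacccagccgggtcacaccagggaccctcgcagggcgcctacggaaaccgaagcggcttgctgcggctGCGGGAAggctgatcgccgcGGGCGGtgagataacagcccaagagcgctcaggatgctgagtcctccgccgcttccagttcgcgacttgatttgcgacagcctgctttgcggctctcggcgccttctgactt
The Ung and Nhej1 windows each held 2 GC boxes, the Ercc1 window 1, and the Rad52 window 1 GC box and 1 E2F motif, which begins at position −132 counted from the start. None of the 4 windows held the CHR motif, the CCAAT box or the p53 decamer.

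E2F factors switch on replication genes, and the DREAM complex, through which p53 is known to lower cell cycle genes, binds E2F and CHR motifs. For that reason the motifs were searched on both strands in RefSeq windows of 250 bases before to 50 after the start, which were found for 36 of the 41 genes (39 promoters). Rad50, Nbn, Xrcc2, Ercc3 and Fancd2 had none. Some windows lie inside the counted gene, such as those of Ercc1, Chek1, Fanci and Xrcc6. That of Xrcc6 begins at 82016119, while the counted gene begins at 81987835. TTCCCGC occurred in 14 of the 39 promoters (35.9%), against 4.60% of all 32851 promoters and 7.40% of the 14222 promoters of genes in the same expression range. The second E2F motif, TTGGCGC, occurred in 4 (10.3%, against 2.45% and 3.74%), and 17 genes held either. The windows around the E2F matches of genes listed as replication-linked (named below), and that of Atm, are shown with the match in capitals.
Bard1 (chr1:71103164-71103190, - strand): gccgctcagtTTCCCGCtcaggaagtt
Brca1 (chr11:101551918-101551944, - strand): ctagcgctagGCGCCAAgcggccggtt
Brca2 (chr5:150522443-150522469, + strand): ttaggccacaGCGGGAAacagacacac
Chek1 (chr9:36726609-36726625, - strand): gcaggttttgGCGGGAA
Fanci (chr7:79392346-79392372, + strand): gtggagtagaGCGGGAAttttggaagg
Msh6 (chr17:87975056-87975082, + strand): cctcccgactTTCCCGCcagcggcggc
Atm (chr9:53536640-53536666, - strand): agagccggaaGCGGGAAggcgtgcgta
Brca1 holds TTGGCGC and the other 6 hold TTCCCGC, and all but Bard1 and Msh6 carry the match on the opposite strand. The CHR motif TTTGAA occurred in 2 of the 39 promoters (5.13%), those of Bard1 and Rnf8, against 17.9% of all promoters and 13.0% in range. The CCAAT box CCAAT occurred in 19 (48.7%, against 37.4% of all and 37.4% in range) and the GC box GGGCGG in 30 (76.9%, against 35.7% of all and 56.5% in range). The p53 decamer occurred in 1, that of Fanca (2.56%, against 8.36% of all and 7.45% in range). GC content was 58.7% at the median of the 39 promoters, 52.7% over all promoters and 59.3% over promoters in range. Of the 19 E2F matches, 3 overlapped another motif, a CCAAT box in Ercc2 and a GC box in Rad51c and Rnf8. A match is a description of these letters and not evidence of binding.

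Levels differed far more between the genes than between the groups. Mean WT TPM ran from 0.947 for Palb2, which ranked 24070 among all genes of the table, to 52.1 for Rad50, which ranked 2927. The median gene was Xrcc4 at 7.75 TPM. In WT, 3 genes exceeded 30 TPM (Rad50, Ercc3 at 42.2 and Parp1 at 33.9), 4 exceeded 20, 15 exceeded 10 and 26 exceeded 5. The coefficient of variation of TPM within WT ran from 0.715% for Rad51c to 28.9% for Xrcc5, with a median of 13.0%, and within cKO from 2.34% for Rnf168 to 30.6% for Xrcc5, with a median of 12.8%.

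The order of levels depends in part on the length used. The deposited TPM divides by the length of all exons of a gene merged, which for some genes is much longer than the longest coding transcript, by 3.40 times for Rad52, 2.92 times for Atr, 2.74 times for Xrcc4, 2.56 times for Ung and 2.55 times for Rad54l. Per kilobase of the longest coding transcript, Rad52 moved from place 26 to 12 among the 41, Xrcc4 from 21 to 7 and Atr from 31 to 21. Rad50 stayed first, Palb2 last, and Parp1 and Ercc3 exchanged places next to Rad50. Changes between groups are not touched by the length.

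**Figure D2:**
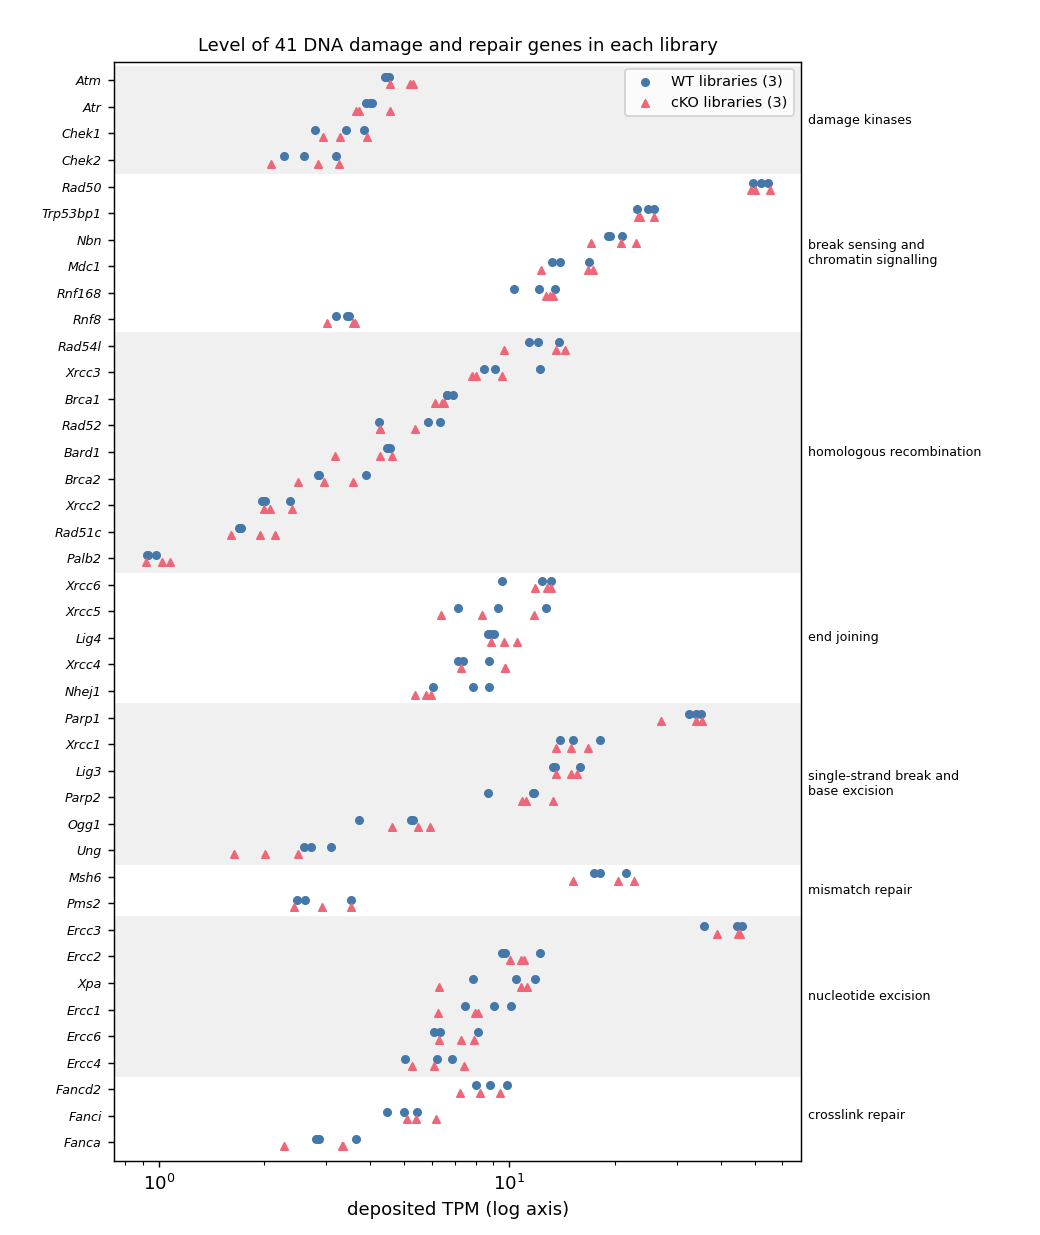
Deposited TPM (log axis) of the 41 genes in each of the 6 libraries, grouped by role, with circles for the 3 WT and triangles for the 3 cKO libraries. Genes spread from about 0.947 TPM (mean WT level of Palb2) to 52.1 TPM (Rad50), while the symbols of a gene lie close together and the groups overlap for all but Atm, Brca1, Ung and, by a narrow margin that is absent from the scaled counts, Nhej1.

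Among the damage kinases, ATM, the kinase that answers breaks, and ATR, which answers stalled forks, had like TPM in WT. Atm (ENSMUSG00000034218, chr9:53439149-53536740, - strand) had 4.42, 4.45 and 4.53 TPM in WT, given here and below in the order of the library numbers, and 5.19, 5.31 and 4.56 TPM in cKO. All 3 cKO libraries were above all 3 WT libraries, by little in cKO library 3. The fitted log2 fold change of Atm was 0.14 (SE 0.107, adjusted p = 0.763, edgeR), with a 95% interval of the fold from 0.942 to 1.30. Atr had 3.99, 3.91 and 4.04 TPM in WT and 3.71, 4.56 and 3.65 TPM in cKO, with cKO libraries on both sides of WT, and a log2 fold change of −0.03 (SE 0.101). Chek2, which relays the ATM signal and was the lowest of the 4, had 2.59, 3.21 and 2.28 TPM in WT and 2.84, 2.09 and 3.26 TPM in cKO. The groups overlapped over their whole range, with a log2 fold change of 0.000 and an interval from 0.709 to 1.41-fold. Chek1, which relays the ATR signal, lay between 2.79 and 3.91 TPM over the 6 libraries, with a log2 fold change of −0.003 (SE 0.177).

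The genes that sense breaks and mark chromatin included the most abundant of all. RAD50 is the coiled-coil ATPase that holds broken ends together, and Rad50 (chr11:53649519-53707319, - strand) had 49.4, 54.7 and 52.2 TPM in WT and 49.0, 55.2 and 50.2 TPM in cKO. The groups overlapped, and its fold change lay between 0.855 and 1.10 (95% interval). Nbn, the regulatory partner of RAD50, lay between 17.1 and 22.9 TPM, and Mdc1, the scaffold that binds phosphorylated H2AX, between 12.3 and 17.3 TPM. RNF8 and RNF168 are the ubiquitin ligases that act in turn on chromatin beside the break. Rnf8, the lowest of the 6, had 3.20, 3.48 and 3.43 TPM in WT and 3.59, 3.62 and 3.01 TPM in cKO. Rnf168 had 12.1, 10.3 and 13.4 TPM in WT and 12.7, 13.3 and 13.0 TPM in cKO, so that the cKO libraries lay within the WT range. Its log2 fold change was 0.10 (SE 0.114, adjusted p = 0.866, edgeR), and that of Rnf8 was −0.01. TP53BP1 reads the mark left by RNF168 and shields ends from resection. Trp53bp1 had 25.8, 23.2 and 24.9 TPM in WT and 25.8, 23.6 and 23.3 TPM in cKO, with a log2 fold change of −0.05 (SE 0.0764), the smallest error of the 41. Log2 fold changes in this group ran from −0.05 to 0.10, 3 above 0 and 3 below.

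Of the 9 homologous recombination genes 3 lay above 0 and 6 below, the median log2 fold change was −0.11, and none passed the test. BRCA1 promotes resection of the ends and, through PALB2, brings BRCA2 to the break. Brca1 (ENSMUSG00000017146, chr11:101488764-101551955, - strand) had 6.90, 6.64 and 6.65 TPM in WT and 6.502, 6.42 and 6.13 TPM in cKO. Every cKO library was below every WT library, by a small margin, and the log2 fold change was −0.11 (SE 0.0977, adjusted p = 0.824, edgeR), with a fold between 0.801 and 1.07. Bard1, the partner of BRCA1 in its ubiquitin ligase, had 4.47, 4.57 and 4.51 TPM in WT and 4.63, 4.26 and 3.18 TPM in cKO, so that cKO library 3 alone stood well below the rest. Palb2, the least abundant of the 41, had 0.934, 0.982 and 0.925 TPM in WT and 0.916, 1.07 and 1.02 TPM in cKO, from 136 to 167 counts per library. The groups overlapped, with a log2 fold change of 0.06 (SE 0.193). Brca2, a mediator of strand exchange, lay between 2.498 and 3.90 TPM.

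RAD52 anneals single strands, and its gene had one of the larger differences among recombination genes. Rad52 (chr6:119902698-119922828, + strand) had 6.33, 4.24 and 5.87 TPM in WT and 5.37, 4.26 and 4.28 TPM in cKO. WT library 2 was as low as the cKO libraries, and the log2 fold change was −0.26 (SE 0.159, adjusted p = 0.705, edgeR). Xrcc3, which supports the recombinase filament, had 12.2, 9.11 and 8.46 TPM in WT and 9.502, 8.02 and 7.84 TPM in cKO. WT library 1 was the highest, the other libraries of both groups overlapped, and the log2 fold change was −0.25 (SE 0.155, adjusted p = 0.706, edgeR). RAD54L remodels chromatin as the strand invades, and Rad54l was the most abundant of the 9, with 13.9, 11.4 and 12.04 TPM in WT and 14.4, 13.6 and 9.65 TPM in cKO. The cKO libraries held both its highest and its lowest values, with a log2 fold change of −0.01 (SE 0.130). Rad51c and Xrcc2, which also support strand exchange, were low, at 1.60 to 2.15 TPM and 1.97 to 2.39 TPM, with log2 fold changes of 0.13 and 0.004.

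The end joining genes included Xrcc5, which had the largest standard error of the 41. Ku70, encoded by Xrcc6, and Ku80, encoded by Xrcc5, form the ring that slides onto DNA ends. Xrcc6 had 13.1, 9.54 and 12.4 TPM in WT and 11.8, 13.1 and 12.8 TPM in cKO, with a log2 fold change of 0.09 (SE 0.122). Xrcc5 lay between 6.39 and 12.7 TPM and the groups overlapped, with the highest value in WT library 3 and the lowest in cKO library 3, and an interval from 0.620 to 1.28-fold. NHEJ1, also called XLF, bridges the ends for ligation, and Nhej1 (ENSMUSG00000026162, chr1:74967139-75125200, - strand) had 6.04, 8.73 and 7.88 TPM in WT and 5.36, 5.79 and 5.98 TPM in cKO. The cKO libraries were close together, and WT library 1 was level with them, above all 3 in TPM but not in scaled counts. Its log2 fold change was −0.43 (SE 0.214, adjusted p = 0.623, edgeR) from 123 to 210 counts per library, and the interval ran from 0.538 to 1.02-fold. XRCC4 is the scaffold of DNA ligase IV. Xrcc4 had 8.72, 7.36 and 7.15 TPM in WT and 7.29, 9.69 and 9.69 TPM in cKO, so that cKO libraries 2 and 3 were above WT and cKO library 1 was not, with a log2 fold change of 0.18 ± 0.142 (SE; edgeR adjusted p = 0.788), the highest of the 41. Lig4, the ligase itself, had a log2 fold change of 0.11 (SE 0.107) at 8.70 to 10.5 TPM.

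Ung had the smallest p of the 41 genes. It encodes uracil-DNA glycosylase, which removes uracil from DNA, much of it at replication forks. Ung (ENSMUSG00000029591, chr5:114130386-114139323, + strand) had 294, 305 and 369 counts in WT and 225, 269 and 200 counts in cKO, or 2.71, 2.59 and 3.09 TPM and 2.01, 2.49 and 1.64 TPM. All 3 cKO libraries were below all 3 WT libraries, with WT library 2 and cKO library 2 nearly level. The log2 fold change was −0.48 (SE 0.182), a fold of 0.717 with a 95% interval from 0.545 to 0.942. The unadjusted p was 0.0206 and the adjusted p 0.494 in edgeR's quasi-likelihood test, which ranks Ung 1188 among all genes tested, so it did not pass. Its promoter is the first sequence printed above.

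The other genes of base excision and single-strand breaks showed no common direction of change. PARP1 and PARP2 bind strand breaks and build poly(ADP-ribose) there. Parp1 had 32.4, 34.0 and 35.2 TPM in WT and 34.1, 35.5 and 27.1 TPM in cKO, with cKO library 3 below the rest and a log2 fold change of −0.10 ± 0.101 (SE; edgeR adjusted p = 0.846). Parp2 lay between 8.67 and 13.3 TPM, with a log2 fold change of 0.11 (SE 0.140). XRCC1 is the scaffold that holds DNA ligase III at the nick. Xrcc1 lay between 13.6 and 18.2 TPM and Lig3 between 13.3 and 15.9 TPM, with log2 fold changes of −0.08 and 0.02. Ogg1, the glycosylase for oxidised guanine, lay between 3.71 and 5.92 TPM, with a log2 fold change of 0.15 (SE 0.195).

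The mismatch repair genes were MSH6, which recognises base mismatches, and PMS2, a nuclease that acts after recognition. Msh6 had 21.5, 18.1 and 17.5 TPM in WT and 22.6, 20.4 and 15.2 TPM in cKO. Pms2 had 3.53, 2.61 and 2.48 TPM in WT and 2.92, 3.54 and 2.43 TPM in cKO. Both overlapped between the groups, with log2 fold changes of 0.005 (SE 0.131) for Msh6 and 0.02 (SE 0.169) for Pms2.

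In nucleotide excision, 4 of the 6 genes had log2 fold changes above 0 and 2 below, with a median of 0.004. ERCC3 and ERCC2 are the helicases of the transcription factor TFIIH that open DNA around a bulky lesion. Ercc3 had 46.0, 44.6 and 35.9 TPM in WT and 44.8, 45.4 and 39.0 TPM in cKO, with a log2 fold change of 0.01 (SE 0.105). Ercc2 lay between 9.49 and 12.2 TPM, with a log2 fold change of 0.001 (SE 0.118). ERCC1 and ERCC4, also called XPF, form the nuclease that cuts on the 5′ side. Ercc1 (chr7:19344778-19356524, + strand) had 10.1, 9.04 and 7.44 TPM in WT and 6.25, 8.13 and 7.99 TPM in cKO, with a log2 fold change of −0.27 ± 0.156 (SE; edgeR adjusted p = 0.687). The lowest WT library was below 2 of the cKO libraries. Its partner Ercc4, the lowest of the 6, had 6.87, 5.02 and 6.21 TPM in WT and 7.41, 6.11 and 5.26 TPM in cKO, with a log2 fold change of 0.03 (SE 0.144). XPA checks the lesion, and Xpa had 10.4, 7.88 and 11.8 TPM in WT and 6.28, 11.2 and 10.8 TPM in cKO. Here cKO library 1 was the lowest and the other cKO libraries lay within WT, with a log2 fold change of −0.11 (SE 0.222). Ercc6, which couples repair to stalled RNA polymerase, lay between 6.09 and 8.12 TPM, with a log2 fold change of 0.05 (SE 0.115).

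The crosslink repair genes belong to the Fanconi anaemia pathway, in which a core complex with FANCA adds ubiquitin to FANCD2 and FANCI. Fancd2 had 8.03, 9.81 and 8.80 TPM in WT and 7.23, 8.26 and 9.38 TPM in cKO, with a log2 fold change of −0.12 ± 0.129 (SE; edgeR adjusted p = 0.852). Fanci had 5.45, 5.00 and 4.47 TPM in WT and 6.16, 5.42 and 5.12 TPM in cKO, with a log2 fold change of 0.14 ± 0.129 (SE; edgeR adjusted p = 0.829). The partners thus had estimates of opposite sign, both with groups that overlapped and neither past the test. Fanca, the lowest of the 3, had 3.64, 2.80 and 2.86 TPM in WT and 3.34, 3.34 and 2.28 TPM in cKO, with a log2 fold change of −0.08 (SE 0.162).

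Genes whose proteins act as partners did not all have equal transcript levels. Rad50 had 2.14 to 2.93 times the TPM of Nbn over the 6 libraries and 6.21 to 8.43 times that of Mre11a, the nuclease of the same complex. Ercc3 had 3.76 to 4.60 times the TPM of Ercc2, Parp1 2.43 to 4.06 times that of Parp2, and Rnf168 2.96 to 4.34 times that of Rnf8. Ratios that spanned 1 were those of the Ku genes (Xrcc6 over Xrcc5, 0.978 to 2), the ligases and scaffolds (Lig4 over Xrcc4, 0.915 to 1.44, and Xrcc1 over Lig3, 0.951 to 1.35) and the XPF nuclease (Ercc1 over Ercc4, 0.844 to 1.80). The ratios of the groups overlapped for 15 of the 16 pairs plotted. For the last, Atm over Atr, the ratio was 1.11 to 1.14 in WT and 1.17 to 1.40 in cKO, which was not tested. Atm by itself did not overlap either, as 14.4% of all genes tested did not. The share of all possible pairs without overlap was not computed, and partners were chosen after their values were seen. Lengths decide the side of 1 here: per kilobase of the longest coding transcript, Atm over Atr was 0.400 to 0.504 and Lig4 over Xrcc4 0.346 to 0.546, Xrcc6 over Xrcc5 1.33 to 2.72 and Xrcc1 over Lig3 1.79 to 2.55. On that length Parp1 over Parp2 was 1.73 to 2.89 and Rnf168 over Rnf8 1.37 to 2.003, both lower than in TPM, while Rad50 over Nbn was 2.23 to 3.06 and Ercc3 over Ercc2 was 3.38 to 4.13.

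**Figure D3:**
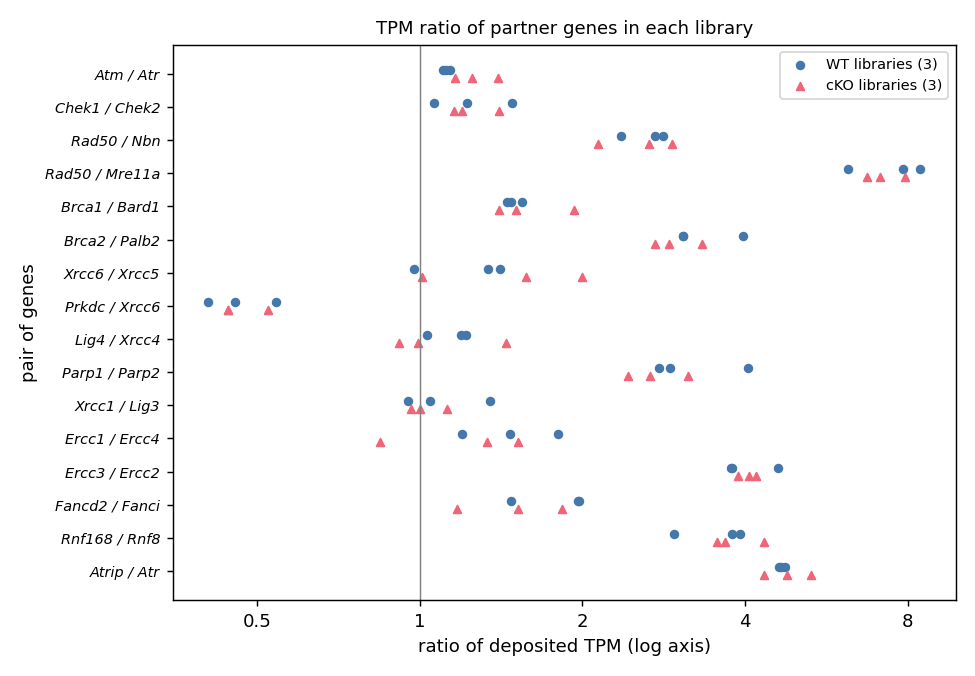
Ratio of deposited TPM (log axis) for 16 pairs of partner genes in each library, with circles for the 3 WT and triangles for the 3 cKO libraries and a line at equal TPM. Rad50 over Mre11a is the farthest to the right at 6.21 to 8.43, and the symbols of the groups are apart for Atm over Atr alone, as they are for Atm by itself.

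Much of the spread was between libraries of the same group. The library labelled cKO 3 held the lowest scaled count of 14 of the 41 genes, where it was the lowest for 17.99% of all genes tested. It held the highest of 3, where it was the highest for 17.69% of all genes. The library cKO 1 was the lowest for 9 of the 41 and the highest for 9, against 18.1% and 17.27% of all genes. Summed over the 41 genes, TPM was 460.2, 426.8 and 430.1 in WT and 449.6, 458.6 and 403.5 in cKO, so that the sums overlapped and cKO library 3 was the lowest. Without cKO library 3 the median log2 fold change of the 41 genes was 0.045, with 25 above 0 and 16 below. Bard1, Parp1, Rad54l, Msh6, Fanca and Ung all had their lowest value in that library.

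**Figure D4:**
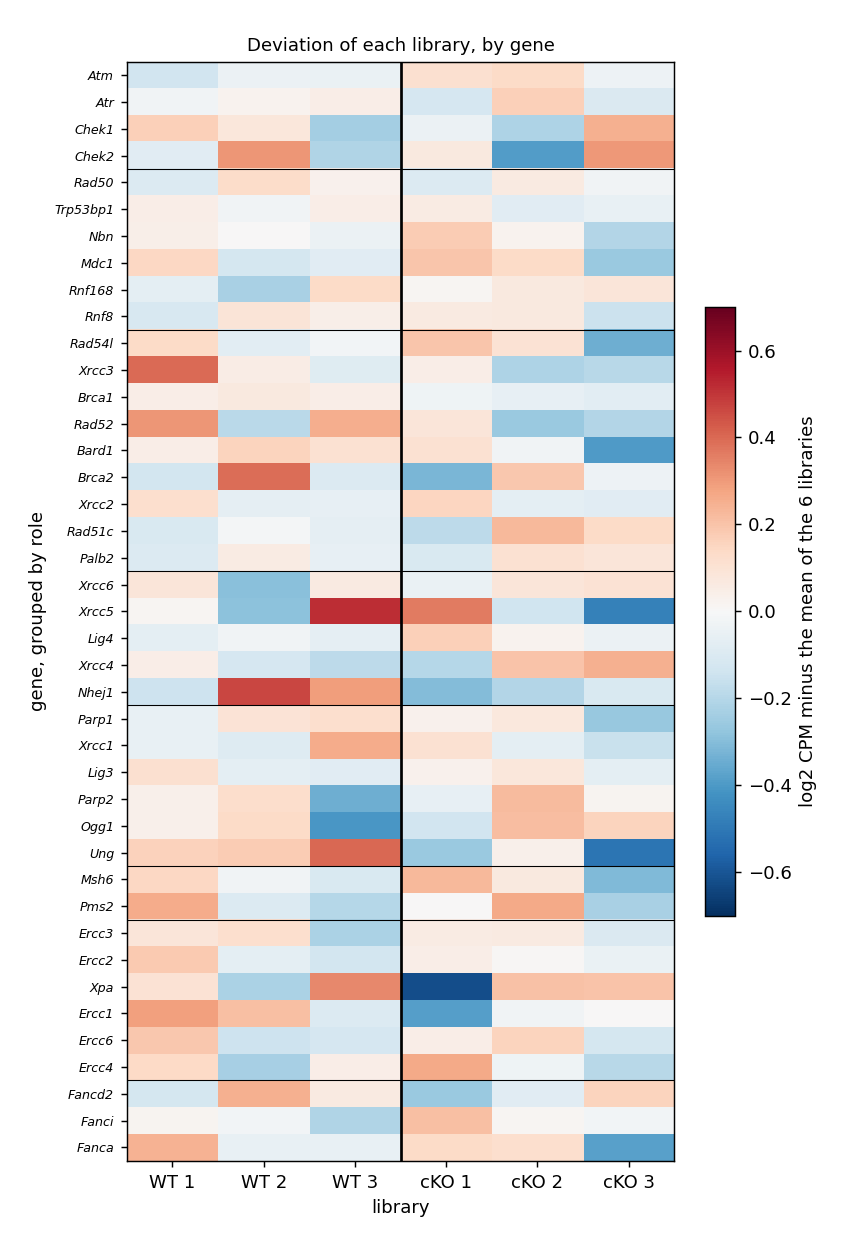
Colour of each cell gives a library's log2 CPM (scaled counts) of a gene minus the mean of the 6 libraries, red above and blue below, for the 41 genes grouped by role. No column pattern separates WT 1 to 3 from cKO 1 to 3, and the column of cKO 3 holds the lowest value of 14 genes.

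The 10 genes listed as replication-linked were Chek1, Brca1, Brca2, Bard1, Rad54l, Msh6, Fanca, Fancd2, Fanci and Ung. The list was drawn up with earlier results of these data known, and it leaves out others that act at forks, such as Atr. The 10 stood at 2 above 0 and 8 below, with a median of −0.09 on the log2 scale. Of all genes tested, 50.95% were below 0. The other 31 genes stood at 19 above and 12 below, with a median of 0.007. Without WT replicate 1 the 10 genes stood at 5 and 5, and without cKO replicate 3 at 4 above and 6 below. With library total scaling the other 31 stood at 14 and 17. Cell cycle genes were read beside them: of 20 S phase genes, such as the replicative helicase genes Mcm2 to Mcm7, 1 was above 0 and 19 below, with a median of −0.24, and of 20 mitosis genes, such as Plk1 and Cdk1, all 20 were below, with a median of −0.26. Without cKO replicate 3 the S phase median was −0.105 and the mitosis median −0.20. In edgeR's test 0 genes of either list passed, with 3 of 20 S phase and 10 of 20 mitosis genes, all lower in cKO, at an unadjusted p under 0.05, beside 8.51% of all genes tested and 4.23% for lower values alone, and DESeq2 called 2 mitosis genes and no S phase gene, while limma-voom called none in either list.

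Per library, the 10 replication-linked genes summed to 73.3, 68.2 and 65.5 TPM in WT and 72.7, 70.7 and 59.5 TPM in cKO, which overlapped. The S phase genes summed to 356.2, 345.5 and 333.6 TPM in WT and 340.9, 321.6 and 260.1 TPM in cKO, and the mitosis genes to 416.7, 426.4 and 430.1 TPM in WT and 394.8, 356.5 and 324.3 TPM in cKO, the latter without overlap. The library cKO 3, lowest for many repair genes, thus also had the lowest sums of both cell cycle lists. In bulk libraries, fewer dividing cells and less RNA of these genes per cell cannot be told apart, and the part of cycling in the values of the repair genes was not tested. Of the 36 genes with a promoter, the 17 with an E2F motif had 11 log2 fold changes above 0 and 6 below (median 0.005), and the 19 without had 7 above and 12 below (median −0.047). An E2F motif was found for 6 of the 9 replication-linked genes with a promoter and for 11 of the other 27.

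**Figure D5:**
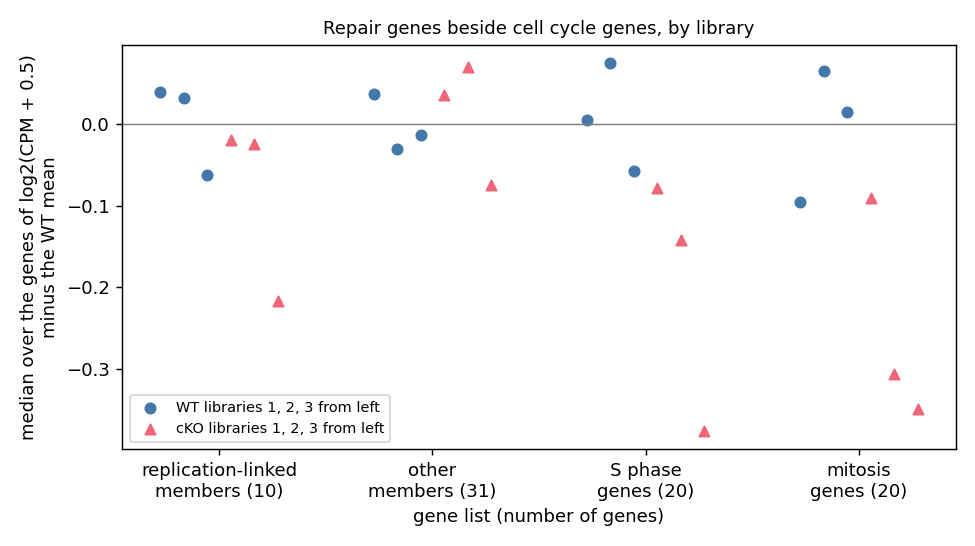
Each symbol is 1 library: the median over a gene list of log2(CPM + 0.5) minus the WT mean, for the 10 replication-linked genes, the other 31 genes, 20 S phase and 20 mitosis genes, with circles for WT 1 to 3 and triangles for cKO 1 to 3, from left to right. The library cKO 3 is the lowest in every list, at −0.22 for the replication-linked genes, −0.075 for the others, −0.38 for S phase and −0.35 for mitosis.

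Other repair genes, listed by pathway, gave the same count. Of 106 further checkpoint, break, excision, mismatch, crosslink and topoisomerase genes, edgeR called 0, with 8 at an unadjusted p under 0.05 (4 higher and 4 lower in cKO), a share near the 8.51% of all genes tested, and DESeq2 and limma-voom also called 0. Their median log2 fold change was −0.03, with 49 above 0 and 57 below. The smallest p-values belonged to Brcc3, Rbbp8, Rif1, Tipin and Abraxas1. Brcc3 and Abraxas1 encode parts of the BRCA1-A complex, which trims ubiquitin chains at breaks, and had log2 fold changes of 0.37 (SE 0.118, adjusted p = 0.409) and 0.58 (SE 0.208, adjusted p = 0.470) in edgeR's fit. Other genes of the complex did not all follow. Babam2 had 0.19 (SE 0.113), without overlap between the groups. Uimc1 had −0.04 (SE 0.0907) and Babam1 −0.12 (SE 0.0864), both with overlap. Brcc3 had 5.65, 6.70 and 5.41 TPM in WT and 7.48, 8.10 and 7.82 TPM in cKO, and Abraxas1 2.51, 1.62 and 2.31 TPM in WT and 3.06, 3.16 and 3.52 TPM in cKO, and in both genes every cKO library was above every WT library. Rbbp8, which encodes the resection factor CtIP, had a log2 fold change of 0.28 (SE 0.0924), Rif1, an effector of TP53BP1, 0.23 (SE 0.0777), and Tipin, of the fork protection complex, −0.45 (SE 0.159), with adjusted p-values of 0.425, 0.439 and 0.465 in edgeR. Rbbp8 had 10.4, 8.68 and 9.10 TPM in WT and 11.3, 11.03 and 12.3 TPM in cKO. Rif1 had 30.96, 30.9 and 28.4 TPM in WT and 34.6, 37.9 and 34.8 TPM in cKO. Tipin had 12.7, 15.4 and 12.3 TPM in WT and 8.97, 9.77 and 11.4 TPM in cKO. The groups of these 3 genes did not overlap either, with cKO above WT for Rbbp8 and Rif1 and below it for Tipin. Of the 106 genes, 6 did not overlap with cKO higher and 8 with cKO lower, beside 14.4% of all genes tested. The 5 were picked by their p in these same libraries, and none of them passed the test.

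The partners that AIRE is known to act with were present. The mean WT level was 33.9 TPM for Parp1, 11.7 TPM for Xrcc6 and 9.71 TPM for Xrcc5, beside 32.2, 12.6 and 8.82 TPM in cKO. Prkdc, the catalytic subunit of DNA-PK, lay between 5.05 and 6.20 TPM, at 0.407 to 0.542 times the level of Xrcc6, with a log2 fold change of 0.10 (SE 0.0974). Top2a, the topoisomerase II of dividing cells, lay between 21.6 and 30.9 TPM and Top2b, its counterpart in resting cells, between 17.2 and 21.01 TPM, with log2 fold changes of −0.17 (SE 0.110) and 0.01 (SE 0.0872).

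Read in the same way were 6 repair genes listed as p53 targets, though whether p53 acts on each in these mouse cells was not tested. They are Ddb2 and Xpc, which detect ultraviolet lesions, the bypass polymerase genes Polk and Polh, the ribonucleotide reductase gene Rrm2b and Gadd45a. In edgeR's test 0 of the 6 passed, with 2 at an unadjusted p under 0.05 (8.51% of all genes tested), and DESeq2 and limma-voom called 0. Polk had 10.3, 8.32 and 7.88 TPM in WT and 7.63, 7.24 and 6.53 TPM in cKO, with a log2 fold change of −0.33 ± 0.122 (SE; edgeR adjusted p = 0.482). Rrm2b had 13.0, 12.9 and 13.2 TPM in WT and 13.98, 15.98 and 15.3 TPM in cKO, with a log2 fold change of 0.19 ± 0.0876 (SE; edgeR adjusted p = 0.586). Neither overlapped between the groups, as 14.4% of all genes tested did not, and the estimates had opposite signs. The median of the 6 was −0.06, with 2 above 0 and 4 below.

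Some of the counts are shared with neighbouring genes, since strand was ignored and a read on several genes was counted for each. Of the exon bases of Ercc2, 42.7% overlap another gene, mostly Gm26852. The share was 25.1% for Lig3 (with Rffl), 15.95% for Fanci (Polg), 15.4% for Rad54l (Lrrc41), 15.04% for Trp53bp1 (Tubgcp4), 10.6% for Ogg1 (Camk1) and 10.5% for Fanca (Zfp276). For Rnf8, 13.2% of exon bases lie in Gm28043, an annotation on the same strand with a mean of 5196 counts against 829.7 for Rnf8, so its level is uncertain. Msh6 shares 12.7% of its 25-base words with Gm11855, and reads that match both equally well were left out.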

How the data were processed

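The authors deposited 1 count file per library, with raw counts per gene. Alignment used TopHat2 2.1.1, the build mm10 and SAMtools 1.9, per the submitters' processing notes. Per the file headers, featureCounts 2.0.0 counted exons of the Ensembl release 99 annotation by gene, ignored strand, counted a read for every gene it overlapped, and left out reads with several alignments. The deposited series table repeats these counts for 51810 of 55385 genes and adds the authors' TPM. TPM was used for levels between genes, and the counts for every test.

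Counts were fitted with edgeR 4.0.16 in R 4.3.3 (TMM scaling, filterByExpr, robust quasi-likelihood F test) on genotype alone. Adjustment followed Benjamini and Hochberg over the 28543 genes that passed the filter, at a threshold of 0.05. The fit was tested on simulated data. Log2 fold changes are cKO over WT, and libraries were compared for overlap in TMM-scaled counts. Alternatives used DESeq2 1.42.0, limma 3.58.1, other scalings and filters, a block for the replicate number, and each library left out. Intervals and tests rest on 3 libraries per group.

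The genes, their roles and the lists were chosen with earlier results of these data known. Full values are given for the 2 genes of each role with the smallest p, the most and least abundant of each role, and genes whose groups did not overlap, and, of the other repair genes, for the 5 with the smallest p. Others named as examples or as partners of these genes were chosen after their values were seen. Promoters came from a RefSeq table (GRCm38.p6), matched by symbol, and the last 25 bases of 36 of the 39 windows were found in a transcript of their gene.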

Additional observations from a re-analysis of the deposited data

How the results depend on the processing

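None of the 41 genes was called in any of the 16 alternatives, and the smallest adjusted p was 0.269, for Ung with a block for the replicate number, within a range of 0.269 to 0.958 for Ung over the alternatives. None of the 106 other repair genes was called in any of them either. The sign of the log2 fold change was the same in all 16 for 17 of the 41, among them Ung (−0.63 to −0.36), Nhej1 (−0.59 to −0.29), Ercc1 (−0.38 to −0.15), Rad52 (−0.40 to −0.17), Brca1 (−0.13 to −0.10) and Atm (0.11 to 0.20). The median of the 41 lay between −0.025 and 0.045, and the median of all genes between −0.025 and −0.001. The count over all genes depended on the method: 17 in edgeR's fit, 175 with DESeq2, 160 without a filter, 5 with limma-voom, 6 without robust estimation and 6 to 16 with each library left out. The replicate block gave 203 (138 higher and 65 lower in cKO). Of the 20 mitosis genes, none called in edgeR's fit, 2 were called with the block (smallest adjusted p 0.0173), 2 without a filter (0.0025) and 2 with DESeq2 (0.00735), over a range of 0.0025 to 0.704 in the alternatives. The labels do not say that same-numbered libraries share an animal or day, and the main fit did not take the numbers as pairs. The deviations of same-numbered libraries correlated at 0.113, 0.0544 and 0.0755. Each library correlated best with the one of its own number, and the thymocyte sums were highest in replicate 2 and lowest in replicate 3 of both groups. Whether same-numbered libraries share a day or batch was not tested. Depth limits the low genes most, such as Nhej1 with 123 to 210 counts and Palb2 with 136 to 167.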
